A study of Mus musculus with 6 samples.

Results

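The Dlk1-Dio3 region of mouse chromosome 12 holds one of the largest groups of microRNA (miRNA) genes of the genome. A list of 43 mature miRNAs from this region was matched by exact name to a table of 2009 mature miRNA names measured in mouse heart, and all 43 were found. They derive from 36 hairpins, all on the plus strand between chr12:109585789-109743795 (GRCm38, which is mm10). Along the chromosome, 3 members lie between Meg3 and Rtl1, 7 lie opposite to Rtl1, 2 lie in Rian, 18 lie between Rian and Mirg, and 13 lie in Mirg. The hearts came from male mice and were perfused outside the body on a Langendorff apparatus, which supplies the coronary vessels through the aorta. Sham hearts (n = 3) went on beating, and hearts given ischemia and reperfusion (I/R, n = 3) were arrested with cardioplegia, a solution that halts contraction, for 30 min and reperfused for 1 h. The labels number the hearts as biological replicates 1 to 3 in each group and state neither strain, genotype nor age. Each library is RNA of heart tissue, so a miRNA that stands at a different level may come from a different number of cells of one type or from a different amount per cell, and these cannot be told apart here.

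The region is imprinted, which means that a gene is read from the chromosome of one parent only. The protein-coding genes Dlk1, Rtl1 and Dio3 are read from the paternal chromosome, and the noncoding RNAs Meg3, Rian and Mirg, with the miRNAs, from the maternal one. These miRNAs are abundant in the embryo, placenta and brain, and are known at lower levels in adult heart, where members have been studied in ischemia, hypertrophy and fibrosis. A miRNA hairpin is cut into a 5p and a 3p arm, and the arm that is kept finds its target RNAs mainly through its seed, bases 2 to 8.

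The mature sequences of the 12 members that averaged 10 RPM or more (RPM, reads per 1000000 reads of the library) over the 6 libraries are shown in order along the chromosome, 5′ to 3′, because they held 96.8% of the member reads. miR-379-3p is added because it shares a seed with miR-411-3p. Capitals mark the seed. The sequences are those of RefSeq for GRCm38.p6, which matched 40 of the 43 members by name.
mmu-miR-127-3p: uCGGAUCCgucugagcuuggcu
mmu-miR-434-5p: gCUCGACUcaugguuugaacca
mmu-miR-370-3p: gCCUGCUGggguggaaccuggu
mmu-miR-379-5p: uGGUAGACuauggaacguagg
mmu-miR-379-3p: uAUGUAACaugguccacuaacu
mmu-miR-411-5p: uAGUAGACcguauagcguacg
mmu-miR-411-3p: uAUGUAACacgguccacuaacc
mmu-miR-543-3p: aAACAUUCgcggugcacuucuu
mmu-miR-300-3p: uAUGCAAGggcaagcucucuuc
mmu-miR-381-3p: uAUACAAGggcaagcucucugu
mmu-miR-134-5p: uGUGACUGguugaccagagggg
mmu-miR-541-5p: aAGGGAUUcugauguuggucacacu
mmu-miR-409-3p: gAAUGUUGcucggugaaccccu

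Among the 40 members with a sequence, miR-379-3p and miR-411-3p were the only pair of members with the same seed, AUGUAAC. Counted from 1 at the 5′ end, with the base of the first-named miRNA before the position, miR-379-3p and miR-411-3p differ by U10C and U22C. Their partner arms miR-379-5p and miR-411-5p differ at 7 positions, of which 1, G2A, lies in the seed. miR-300-3p and miR-381-3p differ by G4A in the seed and by U21G and C22U at the 3′ end. The 3p arms of miR-379 and miR-411, and those of miR-300 and miR-381, are thus near copies of each other, and how reads that match several loci were assigned is not given in the sources used here. Some members also have a seed in common with miRNAs outside the list: miR-379-5p with miR-1193-5p of the same cluster, miR-411-5p with miR-7229-5p, miR-329-3p with miR-362-3p, and miR-410-3p with miR-344d-3p and miR-344e-3p.

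A further pair is shown because it bears on the strand of the reads. miR-136-5p lies opposite to Rtl1, and miR-3071-3p, not a member, is annotated on the other strand of the same hairpin. The sequences are reverse complements over 20 nt.
mmu-miR-136-5p: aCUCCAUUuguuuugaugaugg
mmu-miR-3071-3p: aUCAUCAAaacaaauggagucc

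The recovered depth was 7874103 to 9197869 reads per library, and 799 to 867 names per library were above 0. At this depth 3 reads, the limit that a count of 0 allows, correspond to 0.326 to 0.381 RPM, a limit that covers counting error only. The libraries of a group differed by more than sampling noise (chi-square of 29.5 to 114 per degree of freedom), so all 6 were kept as separate replicates. Heart muscle miRNAs, led by miR-1a-3p, summed to 357851 to 389884 RPM, and all 6 of that list had reads in every library.

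The 43 members together held 981, 1343 and 1279 RPM in sham replicates 1 to 3 and 1340.2, 1605 and 1652 RPM in I/R replicates 1 to 3. They made up 0.0981% to 0.165% of a library. Sham replicate 1 was the lowest library, and the highest sham library lay just above the lowest I/R library, so the groups overlapped. The means were 1201 ± 193 RPM in sham hearts and 1532 ± 168 RPM in I/R (SD, n = 3 each), a ratio of 1.28. Between libraries with the same replicate number the ratios were 1.37, 1.19 and 1.29, and without sham replicate 1 the ratio of the means was 1.17.

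**Figure D1:**
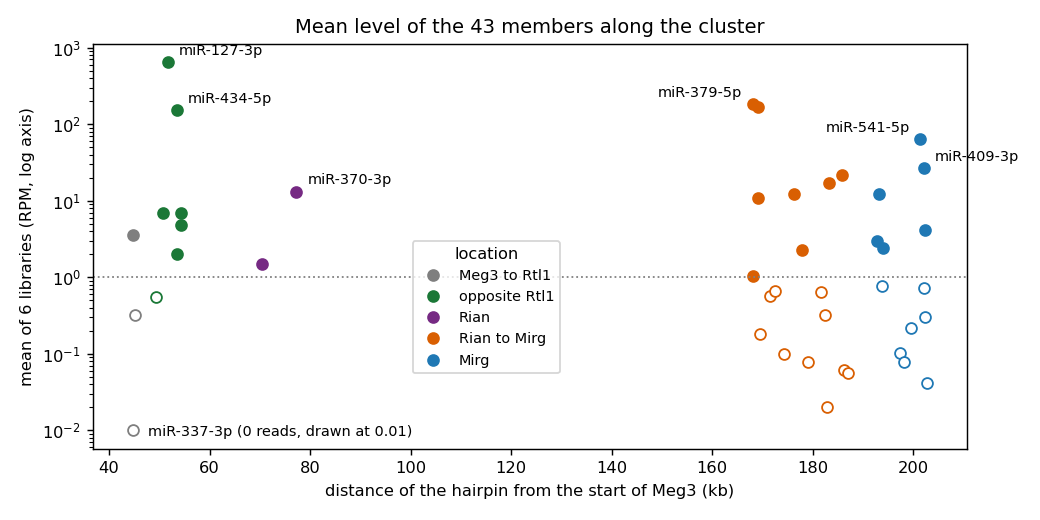
Mean level over the 6 libraries (RPM, log axis) of each of the 43 members against the distance of its hairpin from the start of Meg3 (kb), coloured by location; filled points are the 23 members tested, open points the 20 below the filter, and the dotted line is 1 RPM. Members above 100 RPM stand beside members under 1 RPM both opposite to Rtl1 and between Rian and Mirg.

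A few members carried most of this signal. miR-127-3p alone held 46.9% of the member reads, and with miR-379-5p, miR-411-5p and miR-434-5p it held 83.8%. These were the 4 members above 100 RPM, ranked 56, 90, 94 and 99 among all names of the table. In all, 31 members had reads in every library, and miR-337-3p had none in any. The 23 members that entered the test averaged 1 RPM or more and reads in at least 3 libraries. The other 20 had means of at most 0.761 RPM and 0 to 38 reads over all libraries. Abundant and nearly absent members came from neighbouring hairpins, as the plot of level against position shows.

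The comparison of I/R with sham asks which miRNAs differ after ischemia and reperfusion. On log2(RPM + 1) values, on which the change of low miRNAs is understated, limma called 0 of 409 names at an adjusted p under 0.05 (0% in either direction) and therefore 0 of the 23 members. At an unadjusted p under 0.05 it took 29 names as higher in I/R (7.09%) and 1 as lower (0.244%), and among the members 6 as higher and 0 as lower. edgeR called 0 names and DESeq2 2, and limma with the replicate number as a block 4, none of them a member. The adjusted p of the members ran from 0.598 to 0.970 with limma, and the lowest in any alternative was 0.127, under the replicate block. The members therefore did not pass the test, and the values below are differences between means.

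The direction of these differences was mostly shared. The log2 fold change was positive for 22 of the 23 tested members, against 70.2% of all names tested, and its median was 0.31 for the members against 0.10 for all names. miR-379-3p was the exception, at -0.17. All 3 I/R libraries lay above all 3 sham libraries for 6 members, against 11.2% of all names, and below them for 0 members, against 3.91%. These 6 were miR-127-3p, miR-434-5p, miR-370-3p, miR-134-5p, miR-541-5p and miR-337-5p. Within libraries of the same replicate number, 14 members were higher in I/R in 3 of 3 pairs, against 26.7% of all names. The labels do not state a pairing, so pairs by number are an assumption here and below.

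**Figure D2:**
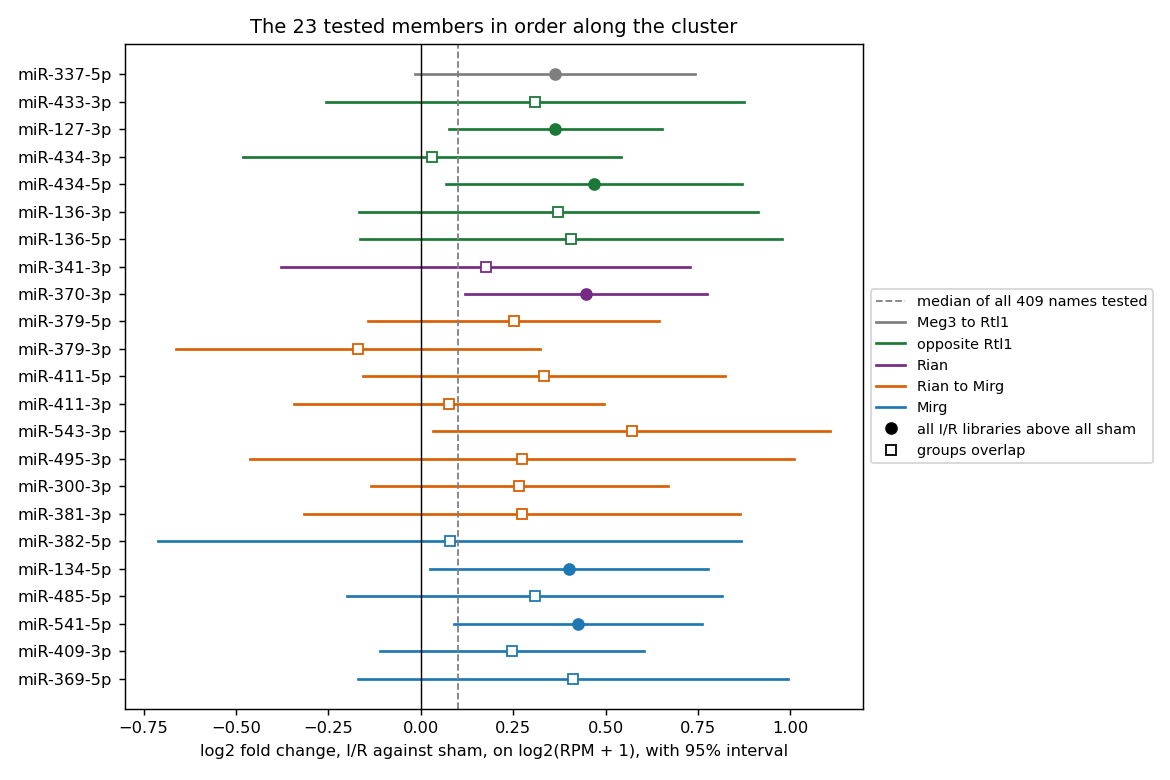
Log2 fold change of I/R against sham on log2(RPM + 1) with its 95% interval from limma for the 23 tested members, in order along the chromosome and coloured by location; filled circles mark the 6 members whose 3 I/R libraries all lay above the 3 sham libraries. All points but that of miR-379-3p lie to the right of 0, and 19 lie to the right of the dashed line at 0.10, the median of all 409 names.

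One library weighed on this shift. Sham replicate 1, the most deeply sequenced, was the lowest of the 6 libraries for 16 of the 23 tested members, against 27.9% of all names. Without it the median log2 fold change of the members was 0.16, that of all names 0.09, and 19 members were positive. Leaving out I/R replicate 3 also left 19 positive. With any other single library left out, the member median stayed between 0.26 and 0.39. Scaling the libraries in other ways moved the median of all names from 0.10 to between -0.01 and 0.04, and the difference between the member median and the median of all names, 0.21 as deposited, was 0.20 to 0.26 under these scalings. At a pseudocount of 10 RPM and with no filter the difference was 0.12, with member medians of 0.17 in both.

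Between Meg3 and Rtl1, miR-337-5p was the only member of 3 that was tested. It is not among the more abundant members, and its values are given because, as the only member tested, it had the smallest p of its stretch. It stood at 2.94, 3.28 and 2.84 RPM in sham replicates 1 to 3 and at 4.27, 4.28 and 3.94 RPM in I/R replicates 1 to 3. Every I/R library lay above every sham library, with a log2 fold change of 0.36 ± 0.17 (SE; limma, adjusted p = 0.598, n = 3 each). miR-540-3p had 16 reads in all, at 0.192 ± 0.0704 RPM in sham hearts and 0.456 ± 0.197 RPM in I/R, and miR-337-3p, from the other arm of the miR-337 hairpin, had 0 reads.

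Opposite to Rtl1, the hairpins are antisense to an exon of this gene, which codes for a protein derived from a retrotransposon. The miRNAs made there are fully complementary to the Rtl1 messenger RNA, and miR-127, miR-136, miR-431, miR-433 and miR-434 are known for cutting or repressing it. The 7 members of this stretch (chr12:109590447-109595388) held 59.6% of the member reads.

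miR-127-3p, from a hairpin at chr12:109592846-109592915, was the most abundant member. Its levels were 474, 608 and 602 RPM in sham replicates 1 to 3 and 646, 761 and 752 RPM in I/R replicates 1 to 3. The lowest I/R library lay above the highest sham library, and the log2 fold change was 0.36 ± 0.13 (limma, adjusted p = 0.598). It was 0.25 without sham replicate 1, the lowest library. miR-434-5p (chr12:109594506-109594599) stood at 96.7, 151 and 139 RPM in sham hearts and at 157, 180.0 and 193 RPM in I/R. Its groups did not overlap either, sham replicate 1 was again the lowest library, and the log2 fold change of 0.47 ± 0.18 (limma, adjusted p = 0.598) was 0.28 without that library.

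The other members opposite to Rtl1 were scarcer, and the groups of the 4 that were tested overlapped. miR-433-3p, studied in cardiac fibrosis, was at 6.07 ± 1.63 RPM in sham hearts and 7.88 ± 2.68 RPM in I/R. miR-136-3p was at 5.90 ± 1.63 and 7.90 ± 1.99 RPM, and miR-136-5p at 4.02 ± 1.32 and 5.57 ± 1.35 RPM. miR-434-3p, from the other arm of the miR-434 hairpin, differed least, at 1.97 ± 0.491 and 2.03 ± 0.481 RPM, and its log2 fold change of 0.03 turned negative under 10 of the alternative settings. miR-431-5p had 28 reads, at 0.685 ± 0.289 RPM in sham hearts and 0.414 ± 0.376 RPM in I/R, and was not tested.

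Rian is a long noncoding RNA that also carries small nucleolar RNAs in its introns, and both of its member hairpins lie in introns. miR-370-3p (chr12:109618258-109618336), known from work on fatty acid oxidation in the liver, stood at 10.4, 11.9 and 10.5 RPM in sham hearts and at 15.98, 16.14 and 13.72 RPM in I/R. Its groups did not overlap, its sham libraries lay close together, and it had the smallest unadjusted p of the members (log2 fold change 0.45 ± 0.14; limma, adjusted p = 0.598). Without sham replicate 1 the log2 fold change was 0.42. miR-341-3p was at 1.31 ± 0.153 RPM in sham hearts and 1.66 ± 0.655 RPM in I/R, and its I/R libraries, from 0.978 to 2.29 RPM, lay on both sides of the sham libraries.

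Between Rian and Mirg lies the stretch with the most members, 18 from 16 hairpins (chr12:109709060-109728202) that overlap none of the annotated host genes. They held 30.7% of the member reads, of which most came from the neighbouring hairpins of miR-379 and miR-411. miR-379-5p (chr12:109709060-109709125) stood at 135, 196 and 169.5 RPM in sham hearts and at 163, 202 and 229 RPM in I/R. miR-411-5p (chr12:109710175-109710256) stood at 109, 183 and 161 RPM in sham hearts and at 146, 215 and 205 RPM in I/R. In both, replicate 1 was the lowest library of its group, and I/R replicate 1 lay below sham replicates 2 and 3. The groups thus overlapped, although every I/R library was above the sham library of its own number. The log2 fold changes were 0.25 ± 0.17 and 0.33 ± 0.22 (limma, adjusted p = 0.661 for both), and without sham replicate 1 they were 0.11 and 0.12. Without I/R replicate 3 that of miR-379-5p was 0.14, and without I/R replicate 1 that of miR-411-5p was 0.51.

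miR-411-3p, the scarcer arm, was at 8.48, 12.3 and 10.5 RPM in sham hearts and at 9.88, 10.03 and 13.21 RPM in I/R. The ranges largely coincided, and its log2 fold change of 0.08 ± 0.18 (limma, adjusted p = 0.893) was negative in 8 of the alternative settings. miR-379-3p, which has the same seed, was at 1.15 ± 0.253 RPM in sham hearts and 0.907 ± 0.0640 RPM in I/R. It was lower in I/R in each of the 3 pairs, with 52 reads in all (limma, adjusted p = 0.806), and it kept its negative sign in every setting in which it was tested.

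miR-300-3p and miR-381-3p differ in 1 seed base. miR-300-3p (chr12:109724313-109724391) stood at 11.9, 17.7 and 16.4 RPM in sham hearts and at 16.7, 20.5 and 18.2 RPM in I/R. miR-381-3p (chr12:109726822-109726896) stood at 14.6, 18.4 and 24.3 RPM in sham hearts and at 22.0, 32.6 and 16.5 RPM in I/R. The groups overlapped for both, widely for miR-381-3p, where I/R held both the highest library and the second lowest one. The log2 fold changes were 0.27 ± 0.18 and 0.27 ± 0.26 (limma, adjusted p = 0.661 and adjusted p = 0.742). Without sham replicate 1 both were 0.10. That of miR-381-3p was 0.02 without I/R replicate 2, its highest library, and 0.45 and 0.50 without sham replicate 3 and without I/R replicate 3.

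miR-543-3p (chr12:109717258-109717333) had, with all 6 libraries, the largest log2 fold change of the members, 0.57 ± 0.24 (limma, adjusted p = 0.598). It stood at 12.5, 6.56 and 10.6 RPM in sham hearts and at 14.0, 12.5 and 18.2 RPM in I/R. Here the low library was sham replicate 2 and not replicate 1, the lowest I/R library and the highest sham library were at about the same level, and the log2 fold change was 0.75 without sham replicate 1 and 0.33 without sham replicate 2. Without the latter it was not the largest, since miR-495-3p stood at 0.64, miR-434-5p at 0.60 and miR-369-5p at 0.59. miR-495-3p, known for promoting the proliferation of heart muscle cells, was at 2.05 ± 1.46 RPM in sham hearts and 2.48 ± 0.671 RPM in I/R.

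The other 10 members between Rian and Mirg were below the filter. miR-329-3p, miR-376c-3p and miR-323-3p had reads in all 6 libraries, with means of 0.655, 0.636 and 0.572 RPM. miR-376b-3p, at 0.189 ± 0.0569 RPM in sham hearts and 0.451 ± 0.250 RPM in I/R, had 16 reads in all. miR-299a-5p had 9 reads, miR-494-3p 5, miR-667-3p 4, miR-487b-3p 3, miR-539-5p 3 and miR-376a-3p 1. miR-494, miR-329, miR-487b and miR-495 have been studied in the growth of new vessels after ischemia, and miR-494 in the protection of the heart from I/R. At this depth no difference between the groups could be read for these 10.

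Mirg carries hairpins in both exons and introns. Those of miR-382, miR-134, miR-668, miR-485, miR-377, miR-369 and miR-410 overlap exons, and those of miR-154, miR-496a, miR-541 and miR-409 lie in introns. The 13 members held 8.35% of the member reads.

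miR-541-5p (chr12:109742409-109742498), studied as a brake on growth of heart muscle cells, stood at 47.6, 55.3 and 59.1 RPM in sham hearts and at 69.9, 64.6 and 84.8 RPM in I/R. Every I/R library lay above every sham library, and the log2 fold change was 0.43 ± 0.15 (limma, adjusted p = 0.598). Without sham replicate 1 it was 0.34. miR-409-3p (chr12:109743158-109743236) stood at 23.6, 25.3 and 23.7 RPM in sham hearts and at 24.3, 28.4 and 35.1 RPM in I/R. Its lowest I/R library lay between the sham libraries, and the log2 fold change was 0.25 ± 0.16 (limma, adjusted p = 0.661), which was 0.11 without I/R replicate 3, its highest library.

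miR-134-5p (chr12:109734139-109734209), best known for limiting dendritic spines in neurons through Limk1, stood at 9.02, 11.9 and 10.1 RPM in sham hearts and at 12.3, 13.5 and 16.1 RPM in I/R. The groups did not overlap, by a small margin between sham replicate 2 and I/R replicate 1, and the log2 fold change was 0.40 ± 0.17 (limma, adjusted p = 0.598). It was 0.32 without sham replicate 1, the lowest library. The remaining tested members of Mirg overlapped between groups. miR-369-5p was at 3.35 ± 1.012 RPM in sham hearts and 4.85 ± 1.70 RPM in I/R, miR-382-5p at 2.78 ± 1.03 and 3.16 ± 1.94 RPM, and miR-485-5p at 2.06 ± 0.723 and 2.73 ± 0.279 RPM. The log2 fold change of miR-382-5p, 0.08 ± 0.35, changed sign under 3 alternative settings.

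The 7 other members of Mirg were not tested. miR-668-3p had 38 reads and miR-409-5p 36, with means of 0.761 and 0.718 RPM. miR-369-3p had 15 reads, miR-377-3p 11, miR-154-5p 5, miR-496a-3p 4 and miR-410-3p 2. miR-410-3p, which like miR-495-3p has been studied in the proliferation of heart muscle cells, was thus under the limit of 3 reads in every library.

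**Figure D3:**
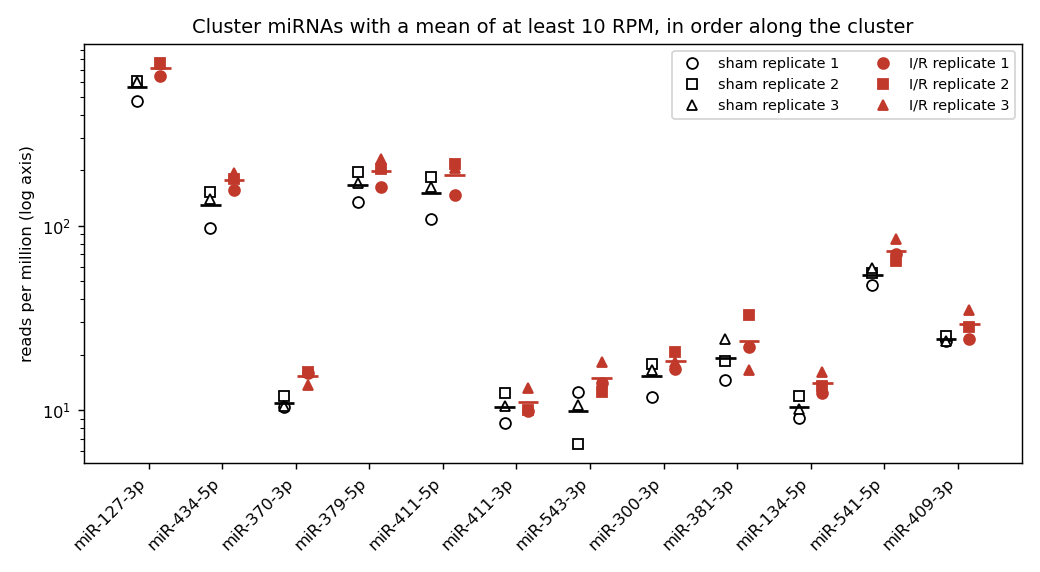
Level (RPM, log axis) in each of the 6 libraries of the 12 members with a mean of at least 10 RPM, in order along the chromosome; symbols mark the replicate number, open black sham, filled red I/R, and bars are group means. The groups are apart for miR-127-3p, miR-434-5p, miR-370-3p, miR-134-5p and miR-541-5p. The open circle of sham replicate 1 is the lowest point for these and for all others but miR-543-3p.

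Summed by location, the groups were apart in 4 of the 5 stretches, with I/R higher. Of single names tested 11.2% were apart in this direction, and no such share was counted for sums. Sham replicate 1 was the lowest library in every stretch but that between Meg3 and Rtl1. Opposite to Rtl1 the sums were 709 ± 109 RPM in sham hearts and 920.0 ± 84.6 RPM in I/R, and in Mirg they were 98.8 ± 10.3 and 129 ± 20.7 RPM. In Rian they were 12.2 ± 0.773 and 16.9 ± 0.859 RPM, and between Meg3 and Rtl1 3.21 ± 0.160 and 4.62 ± 0.124 RPM. Between Rian and Mirg the groups overlapped, at 378 ± 74.8 and 461 ± 72.9 RPM, with I/R replicate 1 at 377 RPM below sham replicates 2 and 3 at 441 and 397 RPM. Each sum mostly follows its most abundant members, and differences between stretches were not tested. Every stretch was higher in I/R in 3 of 3 pairs of the same number, with ratios of 1.11 to 1.52, as were 26.7% of single names tested.

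**Figure D4:**
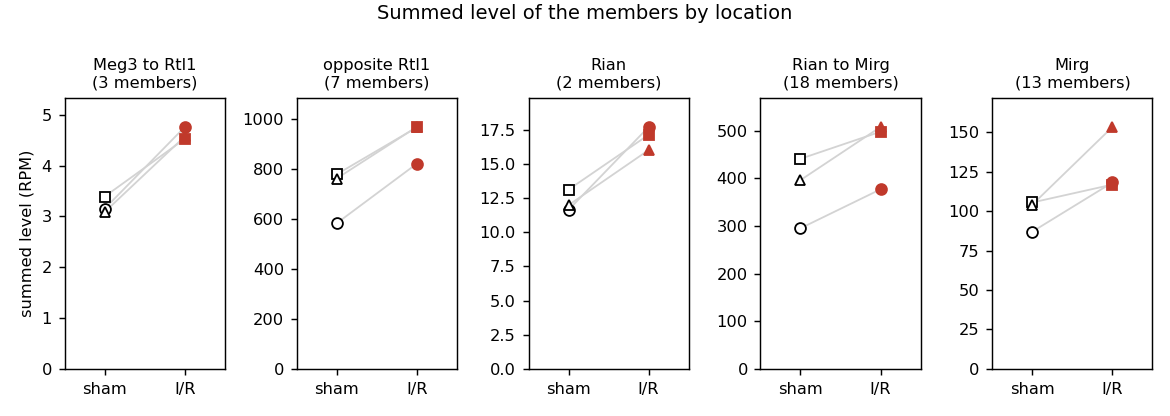
Summed level of the members (RPM, each axis from 0) in sham and I/R hearts for the 5 stretches of the cluster; symbols mark replicate 1 (circle), 2 (square) and 3 (triangle), and grey lines join libraries with the same number. All 3 I/R libraries lie above all sham libraries except between Rian and Mirg.

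The balance between the arms of a hairpin is a measure that the choice of names did not use. Its change in I/R is the log2 fold change of the 5p arm minus that of the 3p arm. It is therefore not separate from the fold changes given above. Of 19 member hairpins with at least 100 reads on both arms together, 10 gave more reads from the 5p and 9 more from the 3p arm. miR-127 gave 0.722% of its reads from the 5p arm (95% Wilson interval 0.635% to 0.820%, for counting error), and miR-434 98.7%, miR-379 99.4%, miR-411 94.0% and miR-541 99.8%. For miR-134 all 608 reads came from the 5p arm, and for miR-381 all 1071 from the 3p arm. miR-382 and miR-485 gave similar amounts from both arms, 54.4% and 53.1% from the 5p arm.

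The change of this balance was tested with limma on log2((5p + 1)/(3p + 1)) in 94 precursors with both arms above the filter, of which 7 are member hairpins. At an adjusted p under 0.05 it called 0 precursors (0%), with a lowest adjusted p of 0.190, and at an unadjusted p under 0.05 it took 6 (6.38%), of which 2 were miR-434 and miR-379. For miR-434 the log2 ratio was 5.34, 5.60 and 5.39 in sham and 5.93, 5.94 and 5.77 in I/R, a difference of 0.44 ± 0.14 (SE; limma, adjusted p = 0.291). For miR-379 it was 6.18, 6.38 and 6.25 in sham and 6.47, 6.68 and 6.93 in I/R, a difference of 0.42 ± 0.16 (limma, adjusted p = 0.537). In both hairpins the abundant 5p arm stood higher in I/R relative to its 3p arm, which rested on 100 and 52 reads. All I/R libraries lay above all sham libraries, but both hairpins were picked by their p, and such separation was not counted over the 94 precursors. The difference was 0.26 ± 0.19 for miR-411, 0.27 ± 0.29 for miR-485, 0.03 ± 0.17 for miR-136, -0.01 ± 0.16 for miR-127 and -0.19 ± 0.37 for miR-382, and the sign of the last 3 changed in other settings.

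**Figure D5:**
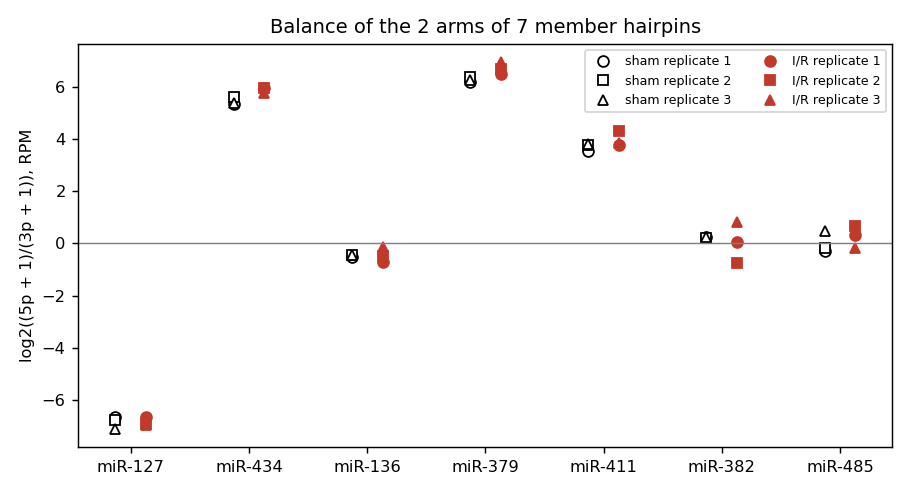
Log2((5p + 1)/(3p + 1)), from the RPM of both arms, in the 6 libraries for the 7 member hairpins with both arms tested; open black symbols are sham and filled red symbols I/R, by replicate number. The groups are apart for miR-434 and miR-379 by less than 1 unit, while the hairpins themselves range from -7.08 for miR-127 to 6.93 for miR-379.

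Some member values could hold reads of the other strand. For miR-136-5p 239 reads were counted, and for miR-3071-3p, annotated opposite to it, 225, so that miR-136-5p had 51.5% of the reads of the pair (95% Wilson interval 47.0% to 56.0%). miR-136-3p had 345 reads and its opposite miR-3071-5p 360 (48.9%, 45.3% to 52.6%). miR-337-5p had 180 reads and its opposite miR-3544-3p 156 (53.6%, 48.2% to 58.8%). These are near-equal shares for RNAs of opposite strands, and since the use of strand in the counting is not given in the sources used here, the levels of miR-136 and miR-337-5p are uncertain. For miR-299a and miR-299b the counts were unequal: miR-299a-3p had 87 reads and miR-299a-5p 9, while both arms of miR-299b, on the other strand, had 0. However, miR-299b-3p, of 18 nt, has the same bases as the start of miR-299a-3p. Likewise miR-299b-5p is miR-299a-5p without its 5′ base. The counts of this pair therefore cannot show from which strand the reads came.

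Beyond the 43 members, 67 other mature names stand in the table whose hairpins lie in a somewhat wider interval from Meg3 into Mirg (chr12:109563692-109747960), of which 28 had no reads and 10 were tested. Their log2 fold change was positive for 9 of the 10, against 70.2% of all names tested. Its median was 0.19 against 0.10 for all names, and limma called 0 (adjusted p from 0.598 to 0.976). Of the 10, miR-3544-3p, miR-3071-3p and miR-3071-5p lie opposite to members with near-equal read counts, and could hold the same reads. miR-127-5p, the minor arm of miR-127, was at 3.97 ± 0.605 RPM in sham hearts and 5.32 ± 0.212 RPM in I/R, and miR-3544-3p at 2.35 ± 0.626 and 3.93 ± 0.639 RPM. For these 2 the groups did not overlap in the direction of I/R, against 11.2% of all names. The others were miR-673-5p, miR-3071-3p, miR-3071-5p, miR-299a-3p, miR-329-5p, miR-382-3p and miR-485-3p, with positive values from 0.03 to 0.29, and miR-376b-5p at -0.11.

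Marker miRNAs of other cell types were read beside the cluster. The 6 names of the fibroblast and smooth muscle list, all present in every library, summed to 37925, 49442 and 40812 RPM in sham hearts and to 43887, 44591 and 53015 RPM in I/R. This sum, which is mostly miR-143-3p, was lowest in sham replicate 1 and highest in I/R replicate 3, the same libraries as for the summed members. Of the 6 names, 5 had a positive log2 fold change, against 70.2% of all names tested. They ran from 0.07 for miR-145a-3p to 0.43 for miR-214-3p, and miR-145a-5p was at -0.23. Sham replicate 1 was the lowest library for miR-143-3p, miR-199a-3p, miR-199a-5p and miR-145a-5p, but not for miR-214-3p or miR-145a-3p. It was the lowest for 27.9% of all names tested. The 4 endothelial names summed to 24976 to 27579 RPM in sham hearts and 25929 to 31932 RPM in I/R. This sum, mostly miR-126a-3p, was again lowest in sham replicate 1 and highest in I/R replicate 3, as was miR-222-3p. miR-126a-5p and miR-221-3p were lowest in sham replicate 3 and highest in sham replicate 2. The heart muscle sum, mostly miR-1a-3p, ran the other way. Its highest value, 389884 RPM, was in sham replicate 1 and its lowest, 357851 RPM, in I/R replicate 3. The other heart muscle names did not peak in sham replicate 1. Among them miR-499-5p was highest in I/R replicate 1 and lowest in sham replicate 2, while the rest were lowest in I/R replicate 3. The part of these cell types in the difference was not tested.

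In the sums of the other lists sham replicate 1 was not the lowest library. The 6 leukocyte names summed to 228 to 270 RPM in sham hearts and 238 to 336 RPM in I/R. Of these, miR-146a-5p stood at 131, 126 and 112 RPM in sham and at 137, 119 and 214 RPM in I/R, a log2 fold change of 0.31. The log2 fold changes of the others ran from -0.11 for miR-155-5p to 0.02 for miR-142a-5p. The 4 red blood cell names summed to 1293 to 1603 RPM in sham hearts and 1432 to 1793 RPM in I/R, with 3 of the 4 above 0 in every library. This sum was mostly miR-486a-5p, with a log2 fold change of 0.09, and the means of the other 3 were lower in I/R. miR-451a was at 4.72 ± 1.52 RPM in sham hearts and 2.75 ± 1.78 RPM in I/R. miR-144-3p was at 0.449 ± 0.274 and 0.246 ± 0.211 RPM, and miR-144-5p at 0.187 ± 0.236 and 0.0423 ± 0.0733 RPM. Of the 5 neuron names, miR-124-3p, which defines neurons, was at 0 in all 6 libraries, and the sum, mostly miR-128-3p, was 2871 to 4396 RPM in sham and 3794 to 4525 RPM in I/R. The pair of miR-9 names was lowest in sham replicate 1, as most tested members were: miR-9-5p stood at 81.1, 132 and 96.3 RPM in sham and at 90.8, 144 and 146 RPM in I/R, and miR-9-3p at 0.435, 0.791 and 1.23 RPM in sham and at 1.46, 1.83 and 1.397 RPM in I/R. Their log2 fold changes were 0.29 and 0.51, and limma called neither. miR-129-5p, of the same list, was lowest in I/R replicate 1, with a log2 fold change of -0.10.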

How the data were processed

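Small RNA was measured in 3 sham and 3 I/R hearts, grouped and numbered as the labels state. Their titles say miRNA-seq, while the labels' protocol describes kits for poly(A) mRNA. The submitters' processing notes name bcl2fastq 2.19.1.403, fastp 0.23.0 and mm10, and of the aligner, miRNA annotation, strand setting and multi-locus reads each is not given in the sources used here. The authors deposited 1 signal value per mature miRNA and library, called FPKM in the name of the table. Checked on the values, each column is read counts times 1 factor, as RPM over a constant 23.0 nt would be, and whole reads were recovered for 100% of values (tolerance 0.01 reads). The test on log values had been planned for FPKM and was kept.

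Log2(RPM + 1) was fitted without a block with limma 3.58.1 in R 4.3.3 (mean-variance trend, two-sided, Benjamini-Hochberg over 409 names that averaged 1 RPM or more and had reads in at least 3 libraries, threshold 0.05), and arm ratios likewise. These names held at least 99.98% of the reads. Scripts were tested on simulated data. Every member is named, with values in every library for those averaging 10 RPM or more or having the smallest p of their stretch. The members and lists were chosen with earlier results of these data known. Alternatives were pseudocounts of 0.1 and 10 RPM, no filter or 5 RPM, other scalings, robust and weighted limma, the replicate block, edgeR 4.0.16 and DESeq2 1.42.0 on recovered reads, and leaving out each library. As a check of pairing, deviations from group means gave correlations of 0.14, 0.28 and 0.16 for same-numbered libraries and -0.19 to 0.07 for the others. These deviations cancel out within each group, so the correlations are not independent and cannot establish pairs. The labels do not state a pairing. Pairs by number are thus an assumption of the counts over pairs and of the replicate block. Hairpin positions come from GENCODE vM21 and RefSeq for GRCm38. Names of the Mir673, Mir493, Mir3544, Mir3070a, Mir3070b and Mir432 hairpins were added to the other names of the cluster from that annotation.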

Additional observations from a re-analysis of the deposited data

How the results depend on the processing

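Over 20 alternative settings limma, edgeR and DESeq2 called 0 members, and 20 of the 23 tested members kept their sign. The number of names called over the whole table was 0 in the reported fit, 1 with no filter, 4 with the replicate block, 2 with the replicate block and median-ratio scaling, 2 with DESeq2, 4 with edgeR and the replicate block, and 0 to 1 with 1 library left out. The replicate block changed no call of a member. Positive members numbered 35 of 42 with no filter and 14 of 14 at a mean of at least 5 RPM, because other members were tested. The median log2 fold change of all names was 0.009 with median-ratio scaling, with or without the replicate block, 0.0351 with totals without the 10 most abundant names, -0.0115 with quantile normalization, -0.007 with edgeR, 0.009 with DESeq2 and -0.0048 with edgeR and the replicate block. Apart from the totals, these scalings centre the names by construction, and under all of them 19 to 21 members were positive.

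3 members changed sign. miR-434-3p was at -0.0349 with median-ratio scaling with or without the replicate block, -0.0179 without the 10 most abundant names, -0.0383 with quantile normalization, -0.0769 with array weights, -0.0683 with edgeR, -0.0700 with edgeR and the replicate block, -0.0537 with DESeq2 and -0.112 to 0.138 with 1 library left out. miR-411-3p was at -0.0129 with median-ratio scaling with or without the replicate block, -0.0605 with quantile normalization, -0.0340 with edgeR, -0.0317 with edgeR and the replicate block, -0.0180 with DESeq2 and -0.0506 to 0.195 with 1 library left out. miR-382-5p was at -0.0306 with quantile normalization and -0.275 to 0.370 with 1 library left out. The difference in arm balance of miR-127 was 0.0592 at a pseudocount of 0.1 RPM and -0.140 to 0.0870 with 1 library left out, that of miR-136 -0.0177 at 10 RPM and -0.117 to 0.166, and that of miR-382 -0.583 to 0.203. The cause of these changes was not tested. Depth limits the 20 untested members, of at most 38 reads each, and 3 hearts a group limit the rest.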
